A study of Mus musculus with 6 samples.

Results

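Keratin transcripts were examined in colonic crypts of mice given GSK503, an inhibitor of the histone methyltransferase EZH2, or vehicle. The family was taken as every gene of the expression table whose symbol is Krt followed by digits alone, which gave 24 of the 18049 genes. Total RNA was sequenced from the crypts of 3 control and 3 GSK503 mice, 1 library a mouse. All 6 mice carried the same engineered genotype, with a Villin-Cre transgene, which is active in intestinal epithelium, and a humanized TgfβRII knockin. All received a Western-style diet from 8 weeks of age. GSK503 was injected into the tail vein at 200 μg/kg in 50 μl of sterile PBS, 2 times a week in a 9-week trial, and controls received 20% captisol in PBS. The age at collection was not given in the sources used here. This genotype was shared by both groups, so the comparison is of GSK503 against vehicle within it and holds no wild-type arm.

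Values are fragments relative to the scaled library total, after trimmed-mean (TMM) normalization, in units of CPM, and the libraries stood for an estimated 108162846 to 135085026 fragments each, so 3 fragments correspond to 0.0228 to 0.0271 CPM. Xist was 0.419 to 0.936 CPM in controls and 825 to 1236 CPM in GSK503 mice, and Uty was 42.5 to 53.7 against 0.67 to 1.08, with Eif2s3y listed at 0 in all 3 GSK503 mice. The groups therefore differed in sex-linked transcripts as well as in treatment, and the 2 differences cannot be told apart. The labelled tissue was checked with the epithelial markers Epcam, Cldn7, Vil1, Cdh1 and Cdx2, which were all present and summed to 4537 to 4605 CPM in controls and 4680 to 4860 CPM in GSK503 mice. Smooth muscle markers differed widely between mice, with sums of 19.8, 81.5 and 40.3 CPM in control mice 1 to 3. In GSK503 mice 1 to 3 the sums were 4.47, 3.95 and 105.0 CPM. GSK503 mouse 3 was thus above every control, and GSK503 mice 1 and 2 were below every control. The keratin calls with each mouse left out are given below.

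Keratins are the intermediate filament proteins of epithelial cells. Each filament is built from pairs of an acidic type I and a basic type II chain, and the filaments join cell to cell through desmosomes. Single-layered epithelia such as the colon use the simple keratins: Krt8 and Krt7 on the type II side, and Krt18, Krt19 and Krt20 on the type I side. Stratified epithelia use other pairs, such as Krt5 with Krt14 in basal cells and Krt1 with Krt10 above them, and hair, nail and tongue papillae use a further set of hard and root-sheath keratins. The members were divided accordingly into 5 simple-epithelial, 9 stratified-epithelial, 4 other epithelial and 6 hair and root-sheath keratins.

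In the mouse genome (GRCm39) the type I genes lie in a cluster on chromosome 11 and the type II genes on chromosome 15, with Krt18, a type I gene, at the end of the chromosome 15 cluster beside Krt8. Of the 24 members, 14 are type I and 10 type II. The GENCODE annotation holds 51 keratin symbols of this form, 25 on chromosome 11 and 26 on chromosome 15, and 27 of them, Krt5 and Krt1 among them, were not analysed here. Krt8 (ENSMUSG00000049382) spans chr15:101905133-101912917 on the minus strand, and Krt18 (ENSMUSG00000023043) spans chr15:101936615-101940462 on the plus strand, 23.7 kb away. Krt7 (ENSMUSG00000023039) lies at chr15:101308924-101328194. On chromosome 11, Krt19 (ENSMUSG00000020911) lies at chr11:100031636-100039491 and Krt20 (ENSMUSG00000035775) at chr11:99319227-99328985.

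The sequences just upstream of 4 members are shown because these genes carry the contrasts described below: Krt18 and Krt7, the simple keratins whose groups did not overlap, Krt20, a simple keratin whose groups did, and Krt84, the most abundant keratin outside the simple class. They come from the RefSeq promoter table, which held 16 of the 24 members, and were placed on GRCm39 by exact match. Up to 250 bases before the start in that promoter table are shown 5′ to 3′ on the gene's own strand, with bases transcribed in the principal GENCODE transcript left out. Positions are counted from the start in the promoter table, so the bases left out (36 in Krt18, 1 in Krt7 and 6 in Krt20) are part of the count. The Krt18, Krt20 and Krt84 windows overlap no annotated feature. The Krt7 window overlaps an exon of a Krt7 transcript with no defined coding sequence and an exon of the antisense long noncoding RNA Gm671. Capitals mark the GC box GGGCGG, the TATA box TATAAA and TTTATG, a core bound by CDX factors, each read on both strands.
Krt18 (chr15:101936401-101936614, plus strand): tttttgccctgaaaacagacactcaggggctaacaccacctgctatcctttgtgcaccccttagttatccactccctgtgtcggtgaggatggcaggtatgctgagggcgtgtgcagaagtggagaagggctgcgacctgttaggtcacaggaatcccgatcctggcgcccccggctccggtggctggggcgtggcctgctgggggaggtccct
Krt7 (chr15:101310034-101310282, plus strand): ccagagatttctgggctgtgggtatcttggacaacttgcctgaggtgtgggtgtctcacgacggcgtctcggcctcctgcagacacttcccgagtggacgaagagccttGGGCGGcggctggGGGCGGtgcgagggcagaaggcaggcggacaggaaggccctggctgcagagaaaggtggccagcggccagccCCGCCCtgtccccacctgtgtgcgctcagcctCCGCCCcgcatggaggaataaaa
Krt20 (chr11:99328986-99329229, minus strand): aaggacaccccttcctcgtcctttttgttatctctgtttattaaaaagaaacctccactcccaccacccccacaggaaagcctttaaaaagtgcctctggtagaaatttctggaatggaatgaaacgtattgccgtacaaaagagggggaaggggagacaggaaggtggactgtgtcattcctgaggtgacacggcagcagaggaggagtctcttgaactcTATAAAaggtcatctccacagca
Krt84 (chr15:101441256-101441505, minus strand): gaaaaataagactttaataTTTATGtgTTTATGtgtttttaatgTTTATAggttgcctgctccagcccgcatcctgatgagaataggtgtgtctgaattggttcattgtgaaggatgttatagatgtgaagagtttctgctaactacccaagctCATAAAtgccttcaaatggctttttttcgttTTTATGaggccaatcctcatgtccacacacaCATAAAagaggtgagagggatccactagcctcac

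The 4 windows differed in base composition and in the letters they hold. The Krt7 window was 65.9% G and C with 16 CpG and 4 GC boxes, at -141, -128, -56 and -24 from the start. The 214 bases shown for Krt18 were 60.7% G and C with 8 CpG and held none of the 3 motifs. The 36 bases next to the Krt18 start were left out, so a motif there would not be shown. The Krt20 window was 47.1% G and C with 4 CpG and a TATA box at -29. The Krt84 window was 38.8% G and C with 2 CpG, and held 5 TTTATG matches and 1 TATAAA match on the opposite strand. Over all 32851 promoters of the table, each taken as the full 250 bases with none left out, the medians were 52.4% G and C and 6 CpG. GGGCGG was found in 32.74% of them and in 1 of 17 keratin promoters, TATAAA in 12.37% and 6, TTTATG in 10.76% and 5, and the AP-1 letters TGANTCA in 6.75% and 2. A match is a match of letters in this window and no evidence of binding.

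The simple keratins made up nearly all keratin RNA of the crypts in both groups. Their summed value was 9888, 9037 and 8412 CPM in control mice 1 to 3 and 11495, 11004 and 9221 CPM in GSK503 mice 1 to 3. The means were 9112 ± 741 and 10573 ± 1197 CPM (SD, n = 3 each), a ratio of 1.16, and the groups overlapped. These 5 genes held 99.7% to 99.8% of the keratin value and 0.862% to 1.08% of each library. Krt8 and Krt19 alone held 86.2% to 88% of the keratin value. The other 19 keratins together came to 16 to 28.1 CPM.

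**Figure D1:**
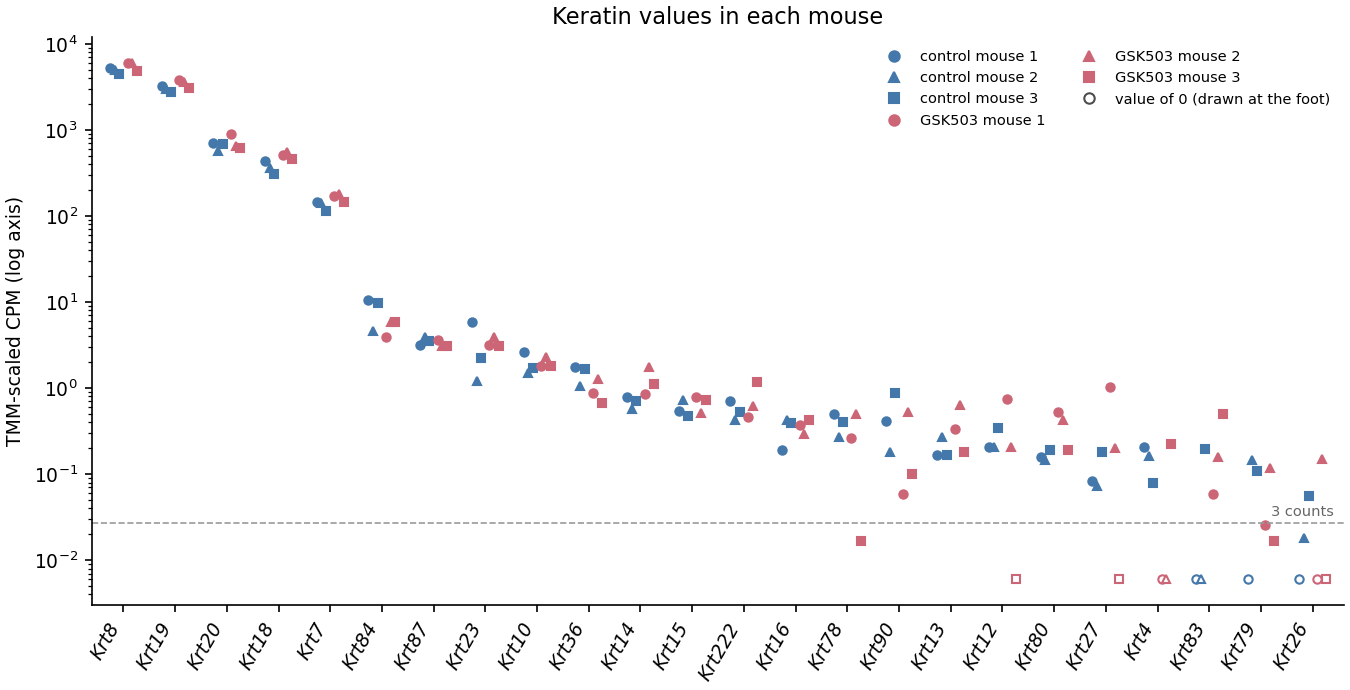
Value of each of the 24 keratins in each mouse, in TMM-scaled CPM on a log axis, with 1 point a mouse (blue control, red GSK503) and genes ordered by level. The 5 simple-epithelial keratins lie between 114 and 6090 CPM, no other keratin exceeds 10.7 CPM, and open points at the foot stand for values of 0. The dashed line marks the highest value of 3 fragments in any library.

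No keratin passed the test between groups. At an adjusted p below 0.1 (limma, Benjamini-Hochberg over 16670 genes), 0 of the 23 keratins tested were called higher and 0 lower, where 1.41% of all genes tested were called higher and 0.558% lower. These backgrounds are 235 and 93 genes, and with scaling to library size alone they became 220 and 785, with the median log2 difference of all genes at -0.12. The limma-voom fit on recovered counts also called 0 keratins. At an unadjusted p below 0.05 there were 2, Krt18 and Krt7, beside 13.3% of all genes. The fitted difference was above 0 for 15 keratins and below 0 for 8, and its median was 0.19 on the log2 scale against -0.01 over all genes. In 4 keratins (Krt18, Krt7, Krt14 and Krt80) every GSK503 mouse lay above every control, where 9.84% of all genes did so, and in 0 keratins did every GSK503 mouse lie below, where 9.22% did.

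Krt18, the type I partner of Krt8, had the lowest p-value of the family. It measured 432, 361 and 311 CPM in control mice 1 to 3 and 514, 559 and 457 CPM in GSK503 mice 1 to 3. Every GSK503 mouse thus exceeded every control, with the closest pair GSK503 mouse 3 and control mouse 1. The log2 difference was 0.48 ± 0.13 (SE; 95% interval 0.20 to 0.76) with a limma adjusted p of 0.135. Krt18 was thus not called with every mouse kept. It was called without control mouse 1, at a difference of 0.60 (limma adjusted p = 0.0761). It was also called without GSK503 mouse 3, at 0.56 (limma adjusted p = 0.0859). When any other mouse was left out it was not called, with limma adjusted p from 0.255 to 0.461. With every mouse kept but without the intensity trend, the limma adjusted p was 0.348.

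Krt7, the lesser type II simple keratin and a marker of glandular and transitional epithelia, followed the same order at a lower level. It measured 146, 141 and 114 CPM in controls and 169, 179 and 148 CPM in GSK503 mice. The groups were apart by a small margin between control mouse 1 and GSK503 mouse 3. The log2 difference was 0.31 ± 0.11 (SE; 95% interval 0.06 to 0.56; limma adjusted p = 0.262).

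Krt8, the main type II keratin of the gut, was the most abundant member. It measured 5319, 4961 and 4505 CPM in controls and 6090, 5966 and 4889 CPM in GSK503 mice. GSK503 mouse 3 lay below control mice 1 and 2, so the groups overlapped. The log2 difference was 0.19 ± 0.17 (SE), with a 95% interval of -0.18 to 0.57 and a limma adjusted p of 0.668. Of the 76-base windows of its transcript, 21.8% also occur in the pseudogene Krt8-ps, so reads from these stretches could be split between the 2.

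Krt19, the simple type I keratin with the shortest coding sequence, was second in abundance. It measured 3293, 3007 and 2801 CPM in controls and 3831, 3648 and 3115 CPM in GSK503 mice. Control mouse 1 exceeded GSK503 mouse 3, so these groups overlapped too. The log2 difference was 0.22 ± 0.14 (SE; 95% interval -0.10 to 0.54; limma adjusted p = 0.558).

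Krt20, a type I keratin of differentiated cells near the crypt mouth, showed the smallest difference of the simple class. It measured 698, 567 and 681 CPM in controls and 891, 651 and 611 CPM in GSK503 mice. GSK503 mouse 1 was the highest of the 6, and the other GSK503 mice lay within the control range. The log2 difference was 0.13 ± 0.15 (SE; 95% interval -0.20 to 0.46; limma adjusted p = 0.753), and it was -0.034 without GSK503 mouse 1. For all 5 simple keratins the fitted difference stayed above 0 with library size scaling and with median-of-ratios scaling.

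**Figure D2:**
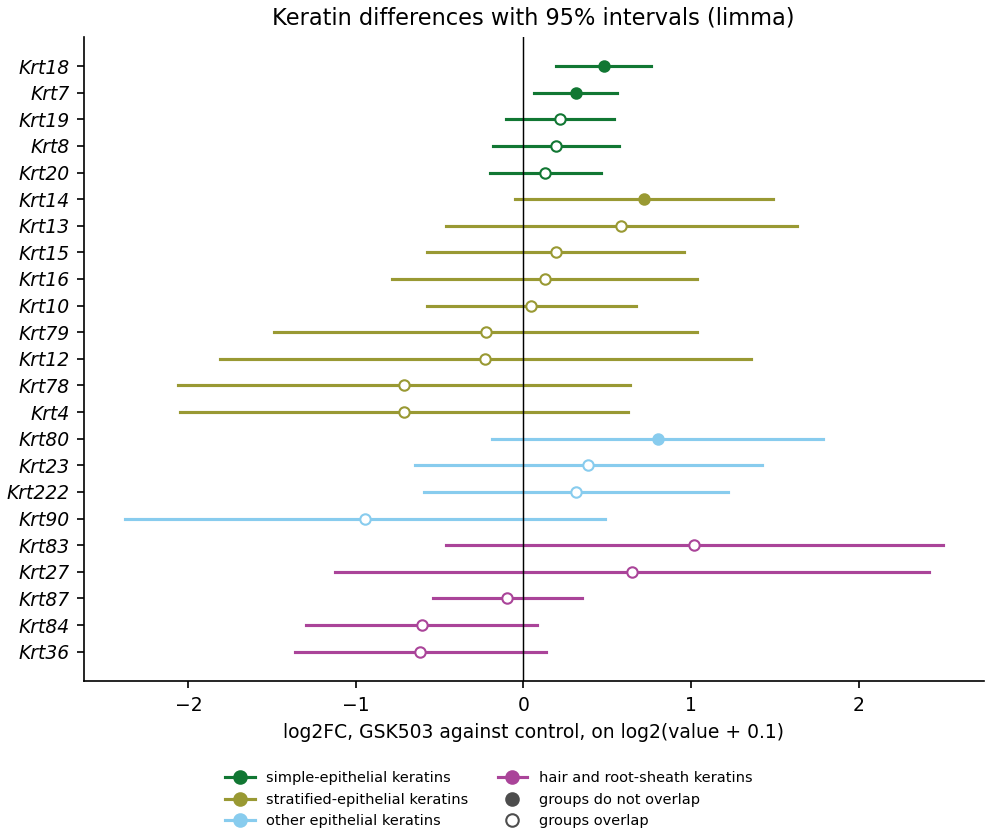
Difference between GSK503 and control mice for the 23 keratins tested, on the log2(value + 0.1) scale, with 95% intervals from limma and genes grouped by class. Filled points mark genes whose groups do not overlap. The intervals of Krt18 (0.20 to 0.76) and Krt7 (0.06 to 0.56) lie above 0, and all others include 0.

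Per kilobase of transcript, the order of the simple keratins by group mean was Krt8, Krt19, Krt20, Krt18 and Krt7. In controls the levels were 2517 ± 208 CPM per kb for Krt8 and 1925 ± 157 for Krt19 (SD, n = 3). Krt8 exceeded Krt19 in every mouse. Krt20 followed at 335 ± 36.9 CPM per kb and Krt18 at 256 ± 42.4, and in GSK503 mice these stood at 370 ± 78.0 and 355 ± 35.8, a gap smaller than either SD. In GSK503 mouse 2 and GSK503 mouse 3 Krt18 lay above Krt20 per kb. Krt7 was lowest at 32.6 ± 4.24 CPM per kb in controls and 40.4 ± 3.95 in GSK503 mice. The next keratin in order, Krt84, reached 3.26 ± 1.26 CPM per kb in controls.

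Because type I and type II chains assemble in pairs, their summed levels were set against each other within each mouse. The ratio of type I (Krt18, Krt19, Krt20) to type II (Krt7, Krt8) transcripts per kb was 0.955 to 1.03 over the 6 mice. Its means were 0.987 ± 0.0284 in controls and 1.01 ± 0.0271 in GSK503 mice (SD, n = 3 each), and the groups overlapped. The type I and type II transcript pools were thus of nearly equal size in every mouse. Per kb of coding sequence the ratio was 0.923 to 0.999. Ratios within a mouse do not depend on library scaling, and they are given here as descriptions with no test.

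Krt19 and Krt8 kept the steadiest proportion. The ratio of Krt19 to Krt8 was 0.619, 0.606 and 0.622 in controls and 0.629, 0.611 and 0.637 in GSK503 mice. Its coefficient of variation over the 6 mice was 1.83%, while that of Krt8 itself was 11.9% and that of Krt19 was 11.95%. The mice that were high in one were thus high in the other, although the genes lie on different chromosomes.

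The proportion of Krt18 to Krt8 differed more between mice. The ratio of Krt18 to Krt8 was 0.0812, 0.0728 and 0.0690 in controls and 0.0844, 0.0938 and 0.0934 in GSK503 mice. These groups did not overlap, and the ratio of their means was 1.22. Of the 10 pairwise ratios among the simple keratins, 3 had groups that did not overlap, and all 3 involved Krt18 (with Krt8, Krt19 and Krt7). Krt18 and Krt7 were already apart as single genes, the 10 ratios share their genes, and no share over all gene pairs was computed, so this count is a description of these mice only. Krt18 made up 9.23% to 10.9% of the type I level per kb in controls and 11.01% to 12.8% in GSK503 mice, while the shares of Krt19 and Krt20 overlapped.

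**Figure D3:**
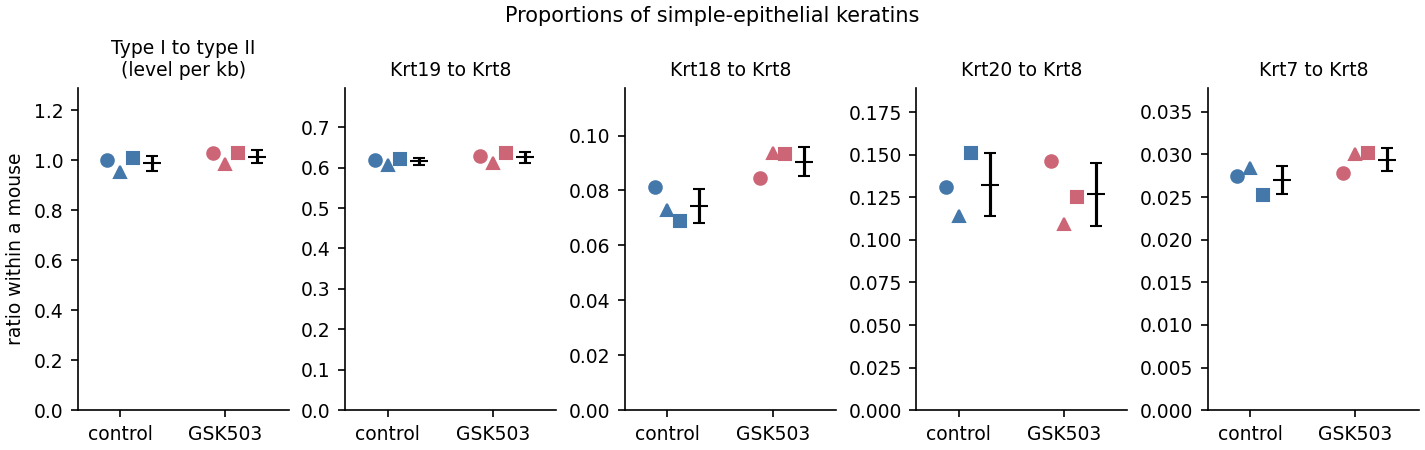
Ratios among simple-epithelial keratins within each mouse (circle mouse 1, triangle mouse 2, square mouse 3 of each group), with the mean and SD of each group as bars and the vertical axes starting at 0. The type I to type II ratio (per kb) and the Krt19 to Krt8 ratio are nearly level across mice, and the Krt18 to Krt8 ratio is 0.0690 to 0.0812 in controls and 0.0844 to 0.0938 in GSK503 mice.

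Goblet cell markers moved with the treatment groups in the same libraries. Of 8 such genes tested, 7 were called higher in GSK503 mice, where 1.41% of all genes tested were, and their median log2 difference was 0.79. The sum of the 8 was 10845 to 19180 CPM in controls and 33294 to 51613 CPM in GSK503 mice. Most of that sum was Clca1 and Fcgbp, with means of 4864 and 6444 CPM in controls and 23931 and 15993 CPM in GSK503 mice. The smallest log2 differences were 0.48 in Zg16 and 0.46 in Atoh1, which was not called. The called genes were Clca1, Fcgbp, Zg16, Tff3, Agr2 and Spink4, which encode secreted proteins of goblet cells or their folding factor, and Spdef, a goblet lineage transcription factor. Spink4 had the lowest limma adjusted p, 0.00164, at a log2 difference of 1.43 and with values of 782, 629 and 549 CPM against 1857, 1774 and 1614 CPM. The number called fell to 2 without control mouse 2, to 4 without control mouse 3 and to 1, Spink4, without GSK503 mouse 2, and to 1 without the intensity trend. In bulk crypts a changed number of cells and a changed level per cell cannot be told apart, and the part of goblet cell content in the Krt18 and Krt7 values was not tested. Surface colonocyte markers, which share the upper crypt with Krt20, had 0 of 6 called and a median of 0.19. Their most abundant members were Car1 (log2 difference -0.04), Guca2a (0.49) and Car4 (0.28), by the mean over the 6 mice. Car1, a carbonic anhydrase, measured 1791, 2206 and 2185 CPM in controls and 4019, 2069 and 954 CPM in GSK503 mice. Crypt-base and proliferation markers had 0 of 7 called and a median of -0.09. In Mki67 and Top2a, genes of dividing cells, every GSK503 mouse lay below every control, where 9.22% of all genes tested did so. Mki67 was at -0.39 (limma adjusted p = 0.136). With library size scaling it was at -0.51 (limma adjusted p = 0.0430), the only 1 of 16 alternatives in which it was called. That scaling also moved the median of all genes to -0.12 and the lower calls from 93 to 785. Mki67 and Top2a were chosen after their values were seen.

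The 9 stratified-epithelial keratins were low, between 0 and 2.63 CPM, and none was called. Krt10, Krt14 and Krt15 stood on 61 or more estimated fragments in every mouse, while Krt4, Krt12 and Krt79 were listed at 0 in at least 1 mouse. Their median log2 difference was 0.05. Krt10, a suprabasal keratin of epidermis, was the most abundant of them at 2.63, 1.5 and 1.72 CPM in controls and 1.81, 2.29 and 1.82 CPM in GSK503 mice. Control mouse 1 was the highest of the 6, and the other controls lay below every GSK503 mouse. Krt14, the type I keratin of basal cells, measured 0.792, 0.570 and 0.716 CPM in controls and 0.865, 1.77 and 1.11 CPM in GSK503 mice. Every GSK503 mouse lay above every control, with a log2 difference of 0.72 ± 0.34 (SE; 95% interval -0.05 to 1.49; limma adjusted p = 0.415). Of its 76-base windows 5.41% are shared with Krt16, and its type II partner Krt5 was not analysed here.

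Krt15, another basal type I keratin, measured 0.548, 0.724 and 0.480 CPM in controls and 0.797, 0.518 and 0.732 CPM in GSK503 mice. Krt16, a keratin of wounded and activated epidermis, measured 0.190, 0.425 and 0.393 CPM against 0.373, 0.295 and 0.424 CPM, with 27.5% of its windows shared with Krt14 and the gene model Gm11597. Both had overlapping groups. Krt13 and Krt4 form the keratin pair of oral and oesophageal lining. Krt13 measured 0.167, 0.271 and 0.165 CPM in controls and 0.331, 0.629 and 0.183 CPM in GSK503 mice. Krt4 measured 0.206, 0.163 and 0.0787 CPM against 0, 0 and 0.225 CPM, so GSK503 mouse 3 held the only reads of its group and also the highest value. The members of this pair did not follow each other across mice.

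Krt12, the type I keratin of corneal epithelium, measured 0.206, 0.208 and 0.346 CPM in controls and 0.747, 0.208 and 0 CPM in GSK503 mice, so the GSK503 group held both the highest and the lowest value. Krt78 measured 0.495, 0.271 and 0.409 CPM against 0.263, 0.502 and 0.0166 CPM. Krt79 measured 0, 0.145 and 0.110 CPM against 0.0254, 0.119 and 0.0166 CPM. For Krt78 and Krt79, keratins of skin, the value of GSK503 mouse 3 is 2 fragments and lies below the 3-fragment floor. Markers of squamous epithelium were correspondingly scarce. Of the 10 listed symbols, of which Lor and Loricrin name the same gene, 5 were in the table. Trp63, the defining transcription factor of basal cells, was 0 to 0.166 CPM. Of the 4 squamous markers tested 0 were called, and Serpinb5, which simple epithelia also express, accounted for 44.0 to 57.3 CPM of their sum of 45.3 to 59.7 CPM.

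Of the other epithelial keratins, Krt23 was the most abundant. This type I keratin measured 5.91, 1.22 and 2.26 CPM in controls and 3.18, 3.94 and 3.06 CPM in GSK503 mice. The controls spanned the whole GSK503 range (limma adjusted p = 0.772). Krt80, a type II keratin found near desmosomes in many epithelia, measured 0.158, 0.145 and 0.189 CPM in controls and 0.524, 0.431 and 0.191 CPM in GSK503 mice. Its groups were apart only by the gap between control mouse 3 and GSK503 mouse 3, and the log2 difference was 0.80 ± 0.44 (SE; 95% interval -0.19 to 1.79; limma adjusted p = 0.480). Krt222 measured 0.708, 0.425 and 0.527 CPM in controls and 0.458, 0.621 and 1.17 CPM in GSK503 mice. Krt90 measured 0.419, 0.182 and 0.873 CPM against 0.0593, 0.526 and 0.0998 CPM. Both had overlapping groups.

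Of the 6 hair and root-sheath keratins, Krt84, Krt87 and Krt36 had reads in every mouse, while Krt26, Krt27 and Krt83 were listed at 0 in at least 1 mouse. Krt84, a type II hard keratin of hair and tongue, was the most abundant keratin outside the simple class. It measured 10.7, 4.68 and 9.73 CPM in controls and 3.89, 5.85 and 5.95 CPM in GSK503 mice, which stand for 459 to 1406 estimated fragments. Control mouse 2 lay within the GSK503 range, so the groups overlapped. The log2 difference was -0.61 ± 0.31 (SE; 95% interval -1.30 to 0.08; limma adjusted p = 0.442). Krt36, a type I hard keratin of nail and tongue, measured 1.74, 1.07 and 1.65 CPM in controls and 0.882, 1.28 and 0.674 CPM in GSK503 mice. Its control mouse 2 again lay within the GSK503 range, and the log2 difference was -0.61 ± 0.33 (SE; 95% interval -1.37 to 0.14; limma adjusted p = 0.477). In both genes control mice 1 and 3 were the 2 highest of the 6.

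Krt87, a hair keratin, varied least of the 19 keratins outside the simple class. It measured 3.14, 3.93 and 3.53 CPM in controls and 3.66, 3.13 and 3.09 CPM in GSK503 mice, a log2 difference of -0.10 with a 95% interval of -0.54 to 0.35. Of its windows 20.4% are shared with Krt81, Krt83, Krt85 and Krt86, so part of this value may belong to those genes. Krt83, also a hair keratin, measured 0, 0 and 0.197 CPM in controls and 0.0593, 0.159 and 0.499 CPM in GSK503 mice, with 12.2% of its windows shared. Krt27, an inner root-sheath keratin, measured 0.0837, 0.0724 and 0.181 CPM in controls and 1.04, 0.199 and 0 CPM in GSK503 mice, with the highest and the lowest value in the GSK503 group. Krt26, another inner root-sheath keratin, was the 1 member below the filter on low values. It ranged from 0 to 0.151 CPM and was listed at 0 in 3 of the 6 mice. Of 4 hair follicle markers 2 were in the table: Tchh, a root-sheath protein, was 0.344 to 0.748 CPM in controls and 1.08 to 1.47 CPM in GSK503 mice, and Foxn1, a hair and thymus transcription factor, was 0.152 to 0.590 against 0.661 to 1.11 CPM. Their groups did not overlap, where 9.84% of all genes tested had every GSK503 mouse above every control. Of the 2, 0 were called, while Krt84 and Krt36 had fitted differences in the opposite direction. Krt6b, whose letter suffix puts it outside the family as defined here, measured 0.175, 0.171 and 0.156 CPM in controls and 0.0594, 0.112 and 0.0499 CPM in GSK503 mice (limma adjusted p = 0.574).

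**Figure D4:**
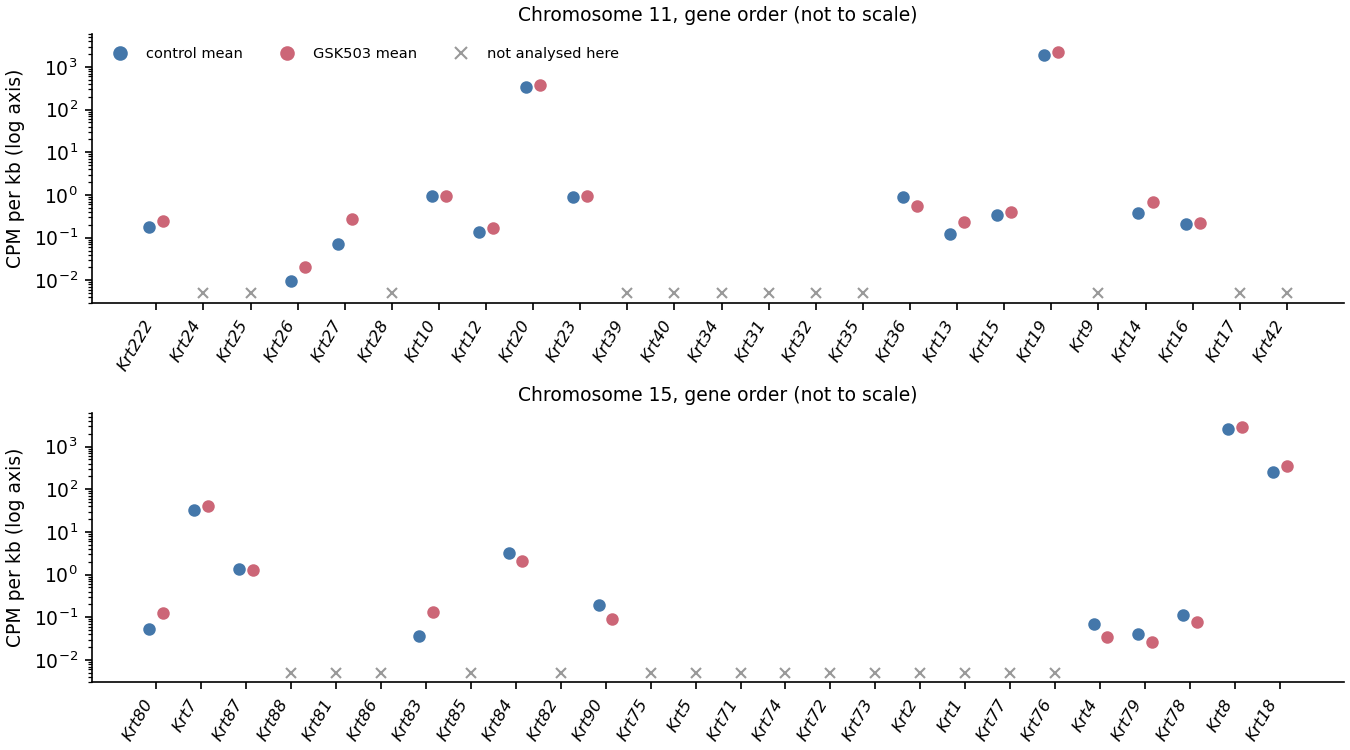
Mean level per kb of transcript in 3 control (blue) and 3 GSK503 (red) mice for every annotated keratin symbol in its order along chromosomes 11 and 15, on log axes, with crosses for genes not analysed here and spacing not to scale. Levels of neighbours differ widely: Krt19 stands at 1925 CPM per kb in controls beside Krt15 at 0.343, and Krt8 at 2517 beside Krt78 at 0.114.

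Position in the cluster did not go with a common level. Krt19, at 1925 ± 157 CPM per kb in controls, lies next to Krt15 at 0.343 ± 0.0739. Krt20, at 335 ± 36.9, lies between Krt12 at 0.137 ± 0.0435 and Krt23 at 0.897 ± 0.706 (SD, n = 3). On chromosome 15, Krt8 and Krt18 are neighbours and are both abundant. Krt7 lies near the other end of the cluster, between Krt80 at 0.0534 ± 0.00739 and Krt87 at 1.36 ± 0.153. Below the simple class, Krt84 (3.26 ± 1.26 CPM per kb in controls) and Krt87 (1.36 ± 0.153) led, and the next 3, Krt10, Krt23 and Krt36, stood at 0.926 ± 0.283, 0.897 ± 0.706 and 0.880 ± 0.217 and did not differ beyond their spread.

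Desmosome and keratin linker genes, which anchor keratin filaments, were abundant in these crypts. Of 15 tested, 1 was called higher and 0 lower, where 1.41% and 0.558% of all genes tested were. Their median log2 difference was 0.04. The called gene was Evpl, which encodes envoplakin, a linker of the plakin family. It measured 91.5, 80.6 and 83.1 CPM in controls and 106, 111 and 109 CPM in GSK503 mice, with no overlap, a log2 difference of 0.36 ± 0.07 (SE) and a limma adjusted p of 0.0691. That call was lost when control mouse 2, control mouse 3, GSK503 mouse 1 or GSK503 mouse 2 was left out, with limma adjusted p up to 0.327. With all 6 mice it was lost under library size scaling (limma adjusted p = 0.109), without the intensity trend (0.263) and with the replicate number as a block (0.159). The most abundant members were Dsp (desmoplakin, the plaque protein that binds keratin), Plec (plectin, a cytoskeletal linker) and Dsg2 (desmoglein, a desmosomal cadherin). Dsp measured 1211, 1140 and 1331 CPM in controls and 1222, 1141 and 1071 CPM in GSK503 mice, a log2 difference of -0.10. Plec measured 944, 840 and 992 CPM against 1345, 1048 and 852 CPM, a difference of 0.20. Dsg2 measured 489, 517 and 657 CPM against 612, 563 and 532 CPM, a difference of 0.05 that became -0.07 with library size scaling. All 3 had overlapping groups.

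**Figure D5:**
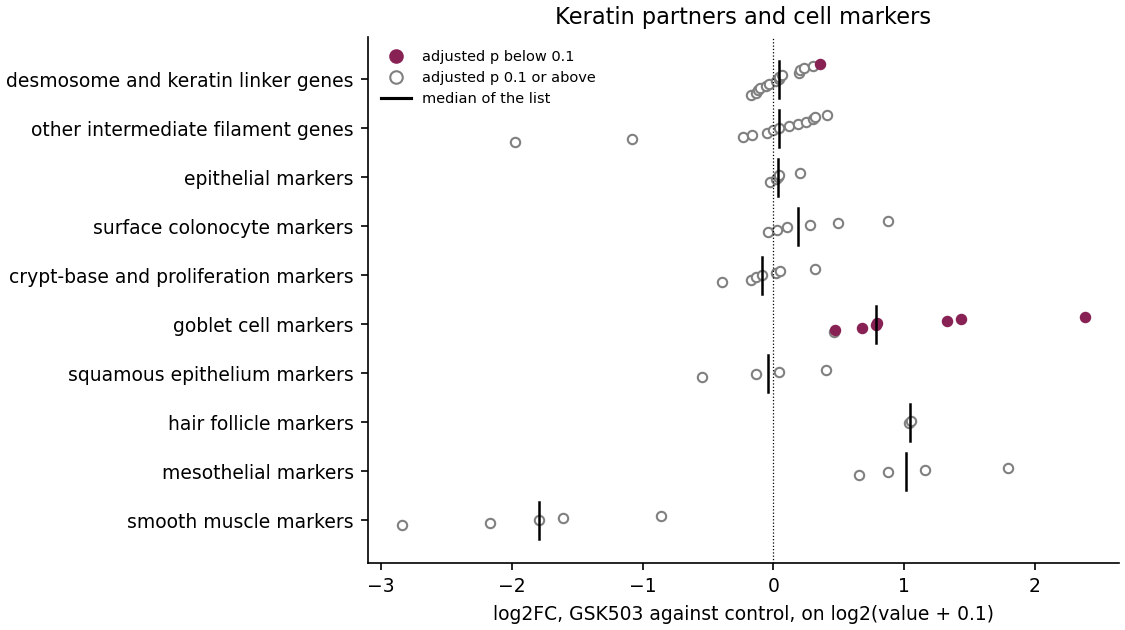
Difference between GSK503 and control mice for the tested genes of each list, on the log2(value + 0.1) scale, with filled points for genes at a limma adjusted p below 0.1 and black bars for list medians. The goblet cell markers lie to the right with a median of 0.79 and 7 of 8 called, and the desmosome and keratin linker genes lie around 0 with a median of 0.04 and 1 of 15 called.

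Markers of other cell types were measured in the same libraries. The 4 mesothelial markers, of cells that also use simple keratins, had fitted differences above 0 (median 1.02) with 0 called, at summed values of 2.09 to 4.31 CPM in controls and 6.17 to 9.23 CPM in GSK503 mice. The 5 smooth muscle markers summed to 19.8 to 81.5 CPM in controls and 3.95 to 105.0 CPM in GSK503 mice, with 0 called. Of 4 B cell markers 1, Ms4a1, was called lower, where 0.558% of all genes tested were. Its log2 difference was -2.74 (limma adjusted p = 0.0875). The 4 markers summed to 3.18 to 21.3 CPM in controls and 0.789 to 3.19 CPM in GSK503 mice. The Ms4a1 call was lost when any mouse other than control mouse 3 was left out (limma adjusted p up to 0.336). With all 6 mice it was lost under limma-voom (limma adjusted p = 0.333), without the intensity trend (0.274), with a pseudocount of 1 (0.168) and with the replicate number as a block (0.155). Fibroblast, endothelial, T cell, macrophage and enteric glia markers had 0 called. The part of these cells in the keratin values was not tested.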

How the data were processed

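Total RNA from colonic crypts was prepared with a stranded kit and sequenced as paired 76-base reads. Per the submitters' processing notes and the study's methods, reads were aligned with STAR to GRCm39 and quantified with RSEM. The authors deposited 1 table of signal values for 6 mice, which are estimated counts scaled by TMM and expressed as CPM (counts brought to a common library total). Whether counting used strand, and how genes were filtered, is not given in the sources used here. Between 75.2% and 78.0% of values were whole multiples (tolerance 0.01) of 1 step a library, which gave the estimated totals. Floors cover counting error only.

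Genes with at least 0.1 CPM in at least 3 mice (16670 of 18049) were tested as log2(value + 0.1) with limma 3.58.1 (R 4.3.3; lmFit, eBayes with an intensity trend) and Benjamini-Hochberg adjustment over all of them, with a call at an adjusted p below 0.1. A fold on this scale understates changes of low genes. Intervals are 95% limma intervals. A two-sided exact permutation test of 3 against 3 mice cannot go below p = 0.1 and was not used. Levels per kb used the length of the principal GENCODE vM39 transcript. Scripts were tested on simulated data. A part of the mouse genotype is not reported here.

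Every keratin that passed the filter is given with its value in each mouse. Of the other lists every called gene is named, not always with its values, except the sex-linked Ddx3y and Kdm5d, both called lower. For the linker and surface colonocyte lists the 3 most abundant members are also named. The members and lists were chosen with earlier results of these data known. Alternatives covered the scaling, filter, pseudocount, variance model, limma-voom on recovered counts, the replicate number as a block and leaving out each mouse.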

Additional observations from a re-analysis of the deposited data

How the results depend on the processing

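The number of keratins called higher was 0 under every alternative that kept all 6 mice and 0 to 1 when each mouse was left out (1 without control mouse 1 and 1 without GSK503 mouse 3, Krt18 each time, at 0.60 and 0.56), and 0 were called lower throughout. The log2 difference of Krt18 stayed between 0.36 and 0.60 over 16 alternatives. Leaving out 1 mouse at a time turned the sign of keratins that were not called: Krt10 ranged from -0.11 to 0.27, Krt12 from -0.98 to 0.56, Krt16 from -0.14 to 0.28, Krt20 from -0.034 to 0.24, Krt222 from -0.020 to 0.58, Krt23 from -0.12 to 0.98, Krt27 from -0.26 to 1.5 and Krt79 from -0.62 to 0.025. It did the same for Dsg2 (-0.037 to 0.18) and Car1 (-0.55 to 0.49). Library size scaling turned Krt10 to -0.062 and Dsg2 to -0.067, a pseudocount of 1 turned Krt12 to 0.036, and limma-voom turned Krt27 to -0.18 and Krt79 to 0.18. The ratio of the summed simple keratin value between groups was 1.07 with library size scaling and 1.16 in the reported values. Over all genes, 235 higher and 93 lower calls became 220 and 785 with library size scaling, 21 and 9 without the intensity trend, and 40 to 358 and 15 to 249 with 1 mouse left out; the cause was not tested. With the replicate number as a block (replicate block) the counts were 73 and 21, of which 0 were keratins and 3 goblet cell markers; the labels do not say that a number marks a shared litter or day, and the correlations of same-numbered deviations were 0.03, -0.13 and -0.12. Below about 0.03 CPM a value rests on fewer than 3 fragments, which limits Krt4, Krt12, Krt26, Krt27, Krt78, Krt79 and Krt83.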

Other observations

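The table also held 3 keratin-associated protein genes, which encode the matrix proteins between hair keratin filaments. Krtap13 measured 0.0990, 0.0543 and 0.283 CPM in controls and 0.356, 0.430 and 0.0666 CPM in GSK503 mice. Krtap3-1 measured 0.518, 0.181 and 0.0236 CPM against 0.170, 0.0797 and 0.0749 CPM. Krtap5-3 measured 0, 0.289 and 0.291 CPM against 0.0593, 0.0797 and 0.0998 CPM and was below the filter on low values. None was called, and the limma adjusted p was 0.715 for Krtap13 and 0.809 for Krtap3-1.

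Of 13 other intermediate filament genes tested, 0 were called and the median log2 difference was 0.04. Lmna, a nuclear lamin gene, was at 0.32 (limma adjusted p = 0.300), and without GSK503 mouse 3 it was called higher at 0.45 (limma adjusted p = 0.0782). Their summed value, of which lamins are the larger part, was 568 to 638 CPM in controls and 624 to 761 CPM in GSK503 mice. Des, the desmin of muscle, measured 1.07, 8.64 and 5.90 CPM in controls and 0.0509, 0.303 and 16.6 CPM in GSK503 mice. As in the smooth muscle sums, GSK503 mouse 3 was above every control and the other GSK503 mice were below every control. Vim, the vimentin of mesenchymal cells, measured 18.2, 16 and 12.7 CPM against 8.12, 12.6 and 22.2 CPM, with the highest value again in GSK503 mouse 3. The genes named here were chosen after their values were seen.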
